A study of Homo sapiens with 5 samples.

Results

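The replication-dependent histone genes of chromosome 6 were taken as the protein-coding GENCODE genes in a 3 Mb region of chromosome 6 (hg38) whose symbols begin with H1-, H2AC, H2BC, H3C or H4C and a digit. The rule gave 55 of the 20033 protein-coding genes on chromosomes 1 to 22, X and Y. They are 6 linker histone (H1), 12 H2A, 15 H2B, 10 H3 and 12 H4 genes. A gene was counted as having an origin or a peak where an interval of a list overlapped the gene or lay within 1 kb of its 5′ end. The rule for choosing genes used neither the intervals nor their values, but it was set with earlier results of these data known.

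All samples came from EJ30, a human bladder carcinoma cell line. In ini-seq 2, nuclei of mimosine-arrested cells, held in late G1 phase, were placed in cytosolic extract of HeLa cells with Br-dUTP, which makes newly copied DNA heavy on 1 strand (HL) and leaves uncopied DNA light on both (LL). This was done for 3 hours, with 2 biological replicates pooled into 1 list of 23905 origins, and for 15 minutes, with 1 list of 10181 origins. In SNS-seq, short nascent strands of 0.5 to 2 kb and of 2 to 4 kb were isolated from EJ30 cells and gave 147657 and 184966 peaks over genomic DNA, a library not analysed here. Initiation in ini-seq 2 thus takes place in isolated nuclei that have been given an extract, whereas SNS-seq strands were made in the cells. Each of the 4 conditions is 1 list without counts or replicate lists. Depth and the spread between replicates therefore cannot be read from the lists, and no difference between groups of genes was tested. The paper reports read depths for both reaction times and the agreement of replicates for the longer reaction, which were not used here. The lists hold positions and no expression values, and the cell type was not checked against marker genes for that reason.

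Replication-dependent histone genes encode the bulk of the histones that package new DNA, and they are transcribed chiefly during S phase. They are short, lack introns, and produce mRNAs that end in a conserved stem-loop instead of a poly(A) tail. The stem-loop is bound by SLBP. NPAT, recruited to nuclear bodies at these genes and activated by cyclin E with CDK2, drives their transcription. Replacement and variant histones, such as H3.3 and H2A.Z, are made throughout the cell cycle from ordinary genes.

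Each of the 55 canonical transcripts was a single exon, with lengths from 386 to 797 bp and a median of 486 bp. Among the other protein-coding genes 1062 of 19978 (5.32%) were single-exon. A stem-loop, searched as 16 bases within 150 bases after the stop codon with a perfectly complementary stem, was present in 50 of the 55 genes and in 19 of the other protein-coding genes. It lay 23 to 63 bases after the stop codon, with a median of 36. The sequences are shown because they mark the genes as replication-dependent, with the stem in capitals and the loop in lower case, and 4 different ones were found.

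Stem-loop of 31 genes of the types H1, H2A, H2B and H3: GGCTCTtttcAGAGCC
Stem-loop of 9 H4 genes: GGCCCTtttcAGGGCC
Stem-loop of 8 genes: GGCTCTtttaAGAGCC
Stem-loop of 2 genes: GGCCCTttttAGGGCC

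No such element was found by this rule in H3C6, H2BC10, H2AC11, H2AC15 or H4C13. Upstream, CCAAT (either strand) occurred in the 250 bases before the 5′ end of 48 of the 55 genes (87.3%), against 34.2% of other protein-coding genes. All H1, H2A, H2B and H3 genes had it, but only 5 of 12 H4 genes did (41.7%). TATAAA occurred in 37 of the 55 genes (67.3%, against 9.19%). ATTTGCAT, the octamer bound by the POU domain factor encoded by POU2F1, occurred in 10 of 12 H2A and 12 of 15 H2B genes and in 0 of the H1, H3 and H4 genes, against 1.46% of other protein-coding genes. These genes are not independent. In 10 pairs, an H2A and an H2B gene are transcribed away from a shared spacer of 193 to 250 bp. A motif in such a spacer was counted for both genes, and 8 of the 10 spacers held the octamer.

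The genes formed 3 groups separated by more than 500 kb. The largest, with 34 genes, spanned 562 kb from chr6:25723397 to 26285638. A group of 5 genes spanned 21.7 kb (chr6:27125897-27147562), and a group of 16 genes spanned 86.4 kb (chr6:27807479-27893891).

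Origins called at 3 hours in ini-seq 2 were present at 2 of the 55 histone genes (3.64%, exact Clopper-Pearson 95% interval 0.443 to 12.5%), H1-2 and H2BC6, against 66.0% of all protein-coding genes. None of the 55 genes had an origin at 15 minutes (exact 95% interval up to 6.49%, and a limit of 5.45% if a count of 0 is taken to allow up to 3 genes), against 46.5% of all protein-coding genes. No histone gene had an origin of the high efficiency class, the top of 3 equal classes with efficiencies HL/(HL + LL) above 0.9065, while 38.0% of all protein-coding genes did. The intervals and limits cover counting error only. In contrast, SNS-seq peaks of the 0.5 to 2 kb fraction were present at 48 of the 55 genes (87.3%, 95% interval 75.5 to 94.7%), close to the 83.2% of all protein-coding genes. Peaks of the 2 to 4 kb fraction were present at 30 genes (54.5%, 95% interval 40.6 to 68.0%), against 84.4%. Thus 46 of the 55 genes (83.6%) had a peak of the 0.5 to 2 kb fraction without a 3-hour origin, a combination found at 18.5% of all protein-coding genes. Among the 39 other protein-coding genes of the same region, 16 (41.0%) had this combination. The median gene length was 495 bp in histone genes and 27601.5 bp in other protein-coding genes, so the windows searched were unlike. Within 1 kb of the 5′ end alone, 50.9% of histone genes and 73.6% of all protein-coding genes had a 2 to 4 kb peak.

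**Figure D1:**
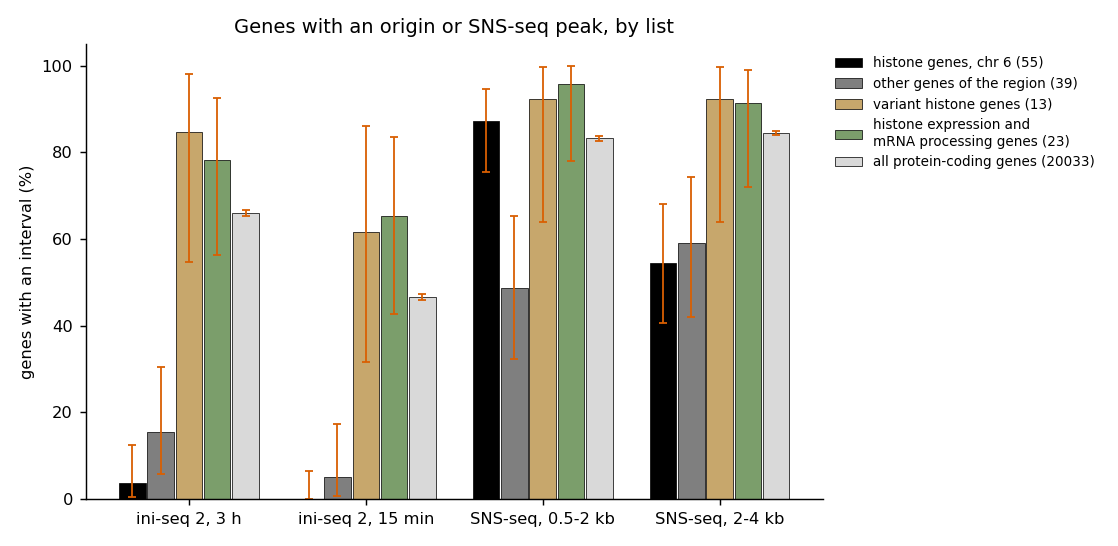
Share of genes (%, bars) with an interval in each of the 4 lists, with exact 95% Clopper-Pearson intervals (orange), for the chromosome 6 histone genes and 4 other sets of genes, with the number of genes in brackets. The histone genes stand at 3.64% and 0% for the ini-seq 2 lists and at 87.3% and 54.5% for the SNS-seq fractions.

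The numbers differed by histone type. All 10 H3 genes had a 0.5 to 2 kb peak, as did 14 of 15 H2B, 11 of 12 H2A, 9 of 12 H4 and 4 of 6 H1 genes. For the 2 to 4 kb fraction the H3 genes had the lowest share, with 3 of 10, followed by 6 of 12 H4, 7 of 12 H2A, 4 of 6 H1 and 10 of 15 H2B genes. With so few genes per type the 95% intervals for the 2 to 4 kb fraction overlap, from 6.67 to 65.2% for H3 and from 38.4 to 88.2% for H2B. The 3 groups of genes along the chromosome gave 28 of 34, 5 of 5 and 15 of 16 genes with a 0.5 to 2 kb peak, and 17, 3 and 10 genes with a 2 to 4 kb peak. Both ini-seq 2 origins lay in the largest group.

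H1-2, which encodes a linker histone, was the only histone gene whose transcript met a 3-hour origin. The origin, chr6:26056301-26056600, was 300 bp long, the smallest length in the list. Its efficiency was 0.8112, in the low class, and 10.1% of the origins in the list had a lower one. The gene (ENSG00000187837, chr6:26055740-26056470, minus strand, 1 exon) has its 5′ end inside this origin, 19.5 bp from the centre. The origin covered 23.3% of the transcript and 130 bases upstream of it, and had a GC content of 62.3%. It overlapped a 0.5 to 2 kb peak of 912 bp (chr6:26055661-26056572) that covered the whole transcript. A 2 to 4 kb peak of 908 bp (chr6:26055538-26056445) covered 96.6% of the transcript and left the 5′ end outside. The upstream bases in the origin are shown beside the same stretch of H1-6, a testis-specific linker histone gene without an interval in any list, on the minus strand with CCAAT in capitals. The GC contents of the stretches were 63.8 and 56.9%.

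H1-2, chr6:26056471-26056600: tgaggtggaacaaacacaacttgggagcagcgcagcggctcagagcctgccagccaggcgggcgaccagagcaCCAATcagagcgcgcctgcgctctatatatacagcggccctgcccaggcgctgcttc
H1-6, chr6:26108136-26108265: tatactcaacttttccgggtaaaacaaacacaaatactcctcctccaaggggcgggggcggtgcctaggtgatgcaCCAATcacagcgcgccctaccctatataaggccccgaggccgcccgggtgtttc

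The origin counted for H2BC6, an H2B gene, was chr6:26171701-26172200, of 500 bp, with an efficiency of 0.8298, again in the low class. It lies over the 5′ end of the gene model (ENSG00000274290, chr6:26172059-26184655), which is 12597 bp long. The canonical transcript, the H2B mRNA of 470 bp, starts 11561 bp from the origin. Peaks of both SNS-seq fractions overlapped the same origin (chr6:26171815-26172255 and chr6:26171737-26172210), and a separate 0.5 to 2 kb peak of 622 bp contained the start of the H2B mRNA. When only canonical transcripts and their 5′ ends were counted, an alternative chosen after seeing the data, H1-2 alone had a 3-hour origin, 47 genes had a 0.5 to 2 kb peak and 28 a 2 to 4 kb peak. In all, 10 histone gene models exceed 2 kb, the longest being H2BC4 with 37610 bp. Neither origin was called at 15 minutes and neither held a G4 motif (4 stretches of 3 or more G on either strand, parted by 1 to 7 bases), which was present in 71.0% of all 3-hour origins.

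Ini-seq 2 origins were sparse in the surroundings as well. In the 3 Mb region there were 13 origins at 3 hours, 4.33 per Mb against 7.74 per Mb over the genome, with 2 in the high, 6 in the medium and 5 in the low efficiency class. At 15 minutes there were 3 (1 against 3.30 per Mb). SNS-seq peaks were not sparse, with 229 peaks of the 0.5 to 2 kb fraction (76.3 against 47.8 per Mb) and 162 of the 2 to 4 kb fraction (54.0 against 59.9 per Mb). The histone genes accounted for 47 of the 229 and 29 of the 162 peaks. The distance from a histone transcript start to the nearest 3-hour origin had a median of 78.4 kb, with quartiles of 28.1 and 232 kb, and exceeded 100 kb at 25 of the 55 genes. For H2BC11 and H2AC11 it was 119 and 118 kb, and for H2AC14 it was 290 kb. Among other protein-coding genes the median distance was 0 kb. The 39 other protein-coding genes of the same region had a median distance of 54.3 kb. Of these, 6 (15.4%) had a 3-hour origin, 2 a 15-minute origin, 19 (48.7%) a 0.5 to 2 kb peak and 23 (59.0%) a 2 to 4 kb peak. The 0.5 to 2 kb peaks were thus at 87.3% of the histone genes and at 48.7% of their neighbours.

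The 47 distinct peaks of the 0.5 to 2 kb fraction at histone genes had lengths from 192 to 1022 bp with a median of 441 bp, and 15 of them lay at more than 1 gene, so the genes are not independent. Of the 47 genes with such a peak within 1 kb of the transcript start, 40 had the start inside the peak (85.1%, 95% interval 71.7 to 93.8%), against 78.3% of the other protein-coding genes with a peak there. Over all 55 genes, 72.7% of starts were covered by a 0.5 to 2 kb peak and 23.6% by a 2 to 4 kb peak. For other protein-coding genes these shares were 52.6 and 67.3%. The covered stretch was short: at 1 kb upstream and 1 kb downstream of the start, 10.9 and 3.64% of histone genes were covered by a 0.5 to 2 kb peak, against 19 and 28.6% of other genes.

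**Figure D2:**
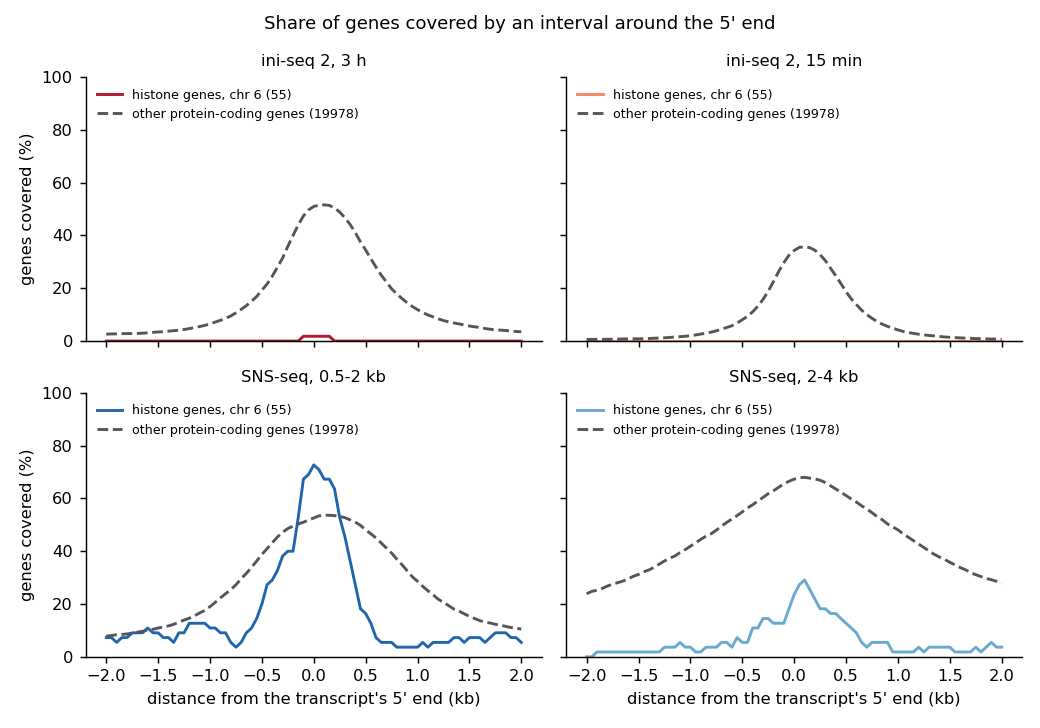
Share of genes (%) covered by an interval of each list at each distance from the 5′ end of the canonical transcript (kb, positive in the direction of transcription), for the 55 histone genes (solid) and the 19978 other protein-coding genes (dashed). At the start, 72.7% of histone genes are covered by a 0.5 to 2 kb SNS-seq peak and 1.82% by a 3-hour origin.

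Peak centres lay on different sides of the start in different types. In H1 genes the 0.5 to 2 kb peak was centred a median of 296.5 bp downstream of the start, and in H3 genes 195 bp downstream. In H4 genes the median was 49 bp downstream. In H2A and H2B genes the median centre was upstream, at -85 and -118.5 bp, on the side of the spacer in paired genes. The 0.5 to 2 kb peaks covered a median of 57.7% of the transcript, and more than 50% of it in 34 of the 55 genes. The whole transcript was covered in 6 genes, namely H1-2, H1-4, H3C6, H2BC13, H3C10 and H3C11. Among the H1 genes, H1-1 and H1-5 were covered over 84.0 and 73.4% of their length. Among the H3 genes with a peak over the transcript, coverage ran from 60.0% in H3C1 and 64.2% in H3C7 through 65.5% in H3C8, 70.4% in H3C3, and 72.6% in both H3C2 and H3C4. H3C12 was counted for a peak at the 5′ end of its gene model of 2792 bp, a peak that contains the starts of H2AC17 and H2BC17, and its own canonical transcript had 0% coverage. The H4 genes H4C13, H4C9 and H4C7 were covered over 93.5, 84.4 and 77.7%, and H4C8, H4C2, H4C1 and H4C5 over 59.4, 59.3, 55.2 and 49.0%. H4C11 and H4C12 stood lower, at 0 and 13.2%.

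**Figure D3:**
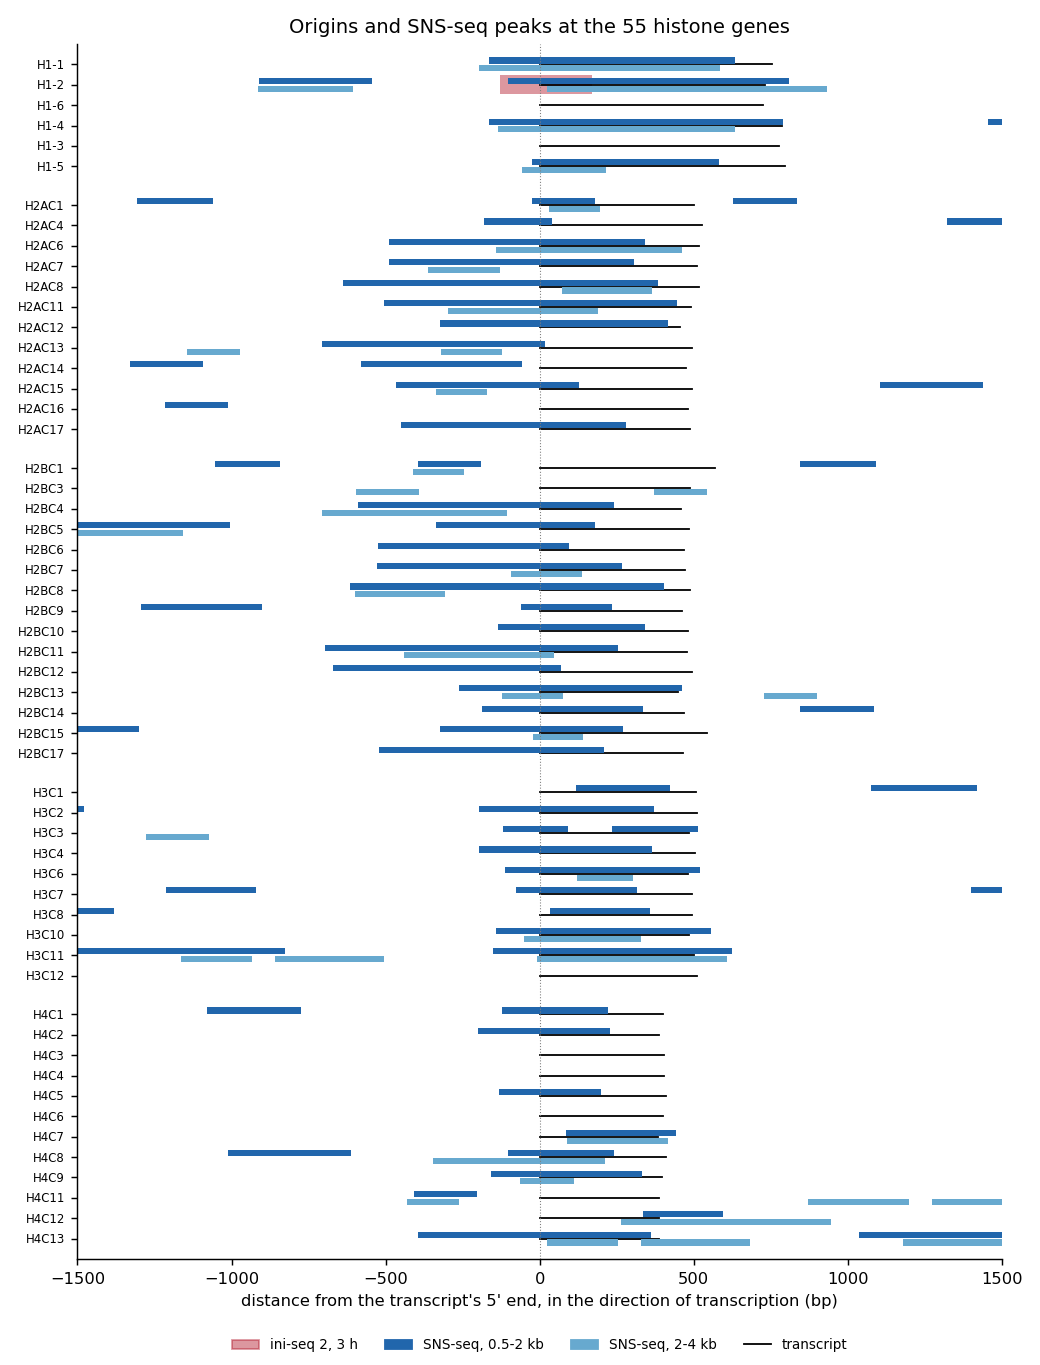
Intervals at each of the 55 histone genes by distance from the 5′ end of the canonical transcript (bp), with 3-hour origins in red, 0.5 to 2 kb peaks in dark blue, 2 to 4 kb peaks in light blue and the transcript as a black line. A 3-hour origin appears at H1-2 only within this window, and 0.5 to 2 kb peaks contain the start of 40 genes.

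For the 2 to 4 kb fraction, 28 genes had a peak within 1 kb of the transcript start. The start lay inside it in 13 (46.4%, 95% interval 27.5 to 66.1%), against 88.8% of the other protein-coding genes with a peak there. The 29 peaks at histone genes had a median length of 294 bp, against 339 bp for all peaks of the list. Compared by the same definition, the 26 peaks within 1 kb of a histone transcript start had a median of 302.5 bp and those within 1 kb of another start 1504 bp. For the 0.5 to 2 kb fraction the 43 peaks within 1 kb of a histone transcript start had a median of 494 bp, against 843.5 bp at other starts and 283 bp for the whole list. The longest 2 to 4 kb peaks lay at linker histone genes, with 908 bp at H1-2, 783 bp at H1-1 and 773 bp at H1-4. At H3C11 a peak of 616 bp covered the whole transcript, and at H4C12 a peak of 681 bp covered 31.5% of it. The shortest, 164 bp, lay at the H2AC15 and H2BC15 pair. A peak in both fractions was found at 29 genes, in the 0.5 to 2 kb fraction alone at 19 (34.5%, against 3.04% of all protein-coding genes), and in the 2 to 4 kb fraction alone at H2BC3.

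No peak of either fraction was found at 6 genes, the linker histone genes H1-3 and H1-6, the H4 genes H4C3, H4C4 and H4C6, and H2AC16. H2AC16 was a near miss, with a 0.5 to 2 kb peak 1010 bp from its start. At the other genes the nearest 0.5 to 2 kb peak was 5256 bp (H4C4), 6161 bp (H4C6), 9332 bp (H1-3), 15548 bp (H1-6) and 19750 bp (H4C3) away. H2BC3 had its nearest 0.5 to 2 kb peak at 1552 bp and a 2 to 4 kb peak at 370 bp. H4C3 and H1-6 are neighbours and lay in the same stretch free of peaks. GC content within 500 bp of the start was 44% at H4C3 and 45.2% at H1-6, near the low end of the histone genes, and 48.2 to 52.9% at the other 4 genes.

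Of the genes, 22 form 11 divergent pairs, in which neighbours on opposite strands are transcribed away from a spacer of up to 1 kb. There were 10 pairs of an H2A with an H2B gene, with spacers of 193 to 250 bp, and the pair H3C7 with H2BC9, with a spacer of 978 bp. CCAAT was present in 11 spacers, TATAAA in 9 and ATTTGCAT in 9. The spacers had GC contents of 34.4 to 47.7%. None was touched by an ini-seq 2 origin of either reaction time, whereas a 0.5 to 2 kb peak touched each of the 11. In 8 of them a single peak contained the whole spacer and both 5′ ends. A 2 to 4 kb peak touched 5 spacers and contained both 5′ ends in 1, H2BC11 with H2AC11. No share was computed for the spacers of other divergent genes, so these counts cannot be called particular to the histone pairs. In the wider window of 1 kb from the start, 58.5% of all protein-coding genes had a 3-hour origin. A 0.5 to 2 kb peak was there at 67.2% of them. The longest 0.5 to 2 kb peak at any histone gene, 1022 bp (chr6:26216283-26217304), lay over H2BC8 and H2AC8.

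**Figure D4:**
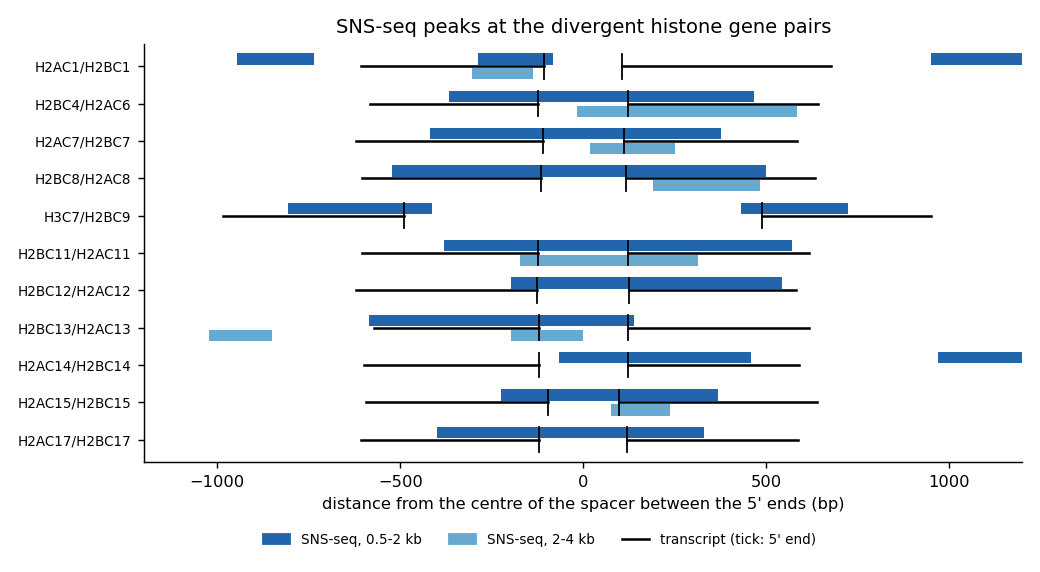
SNS-seq peaks at the 11 divergent pairs by distance from the centre of the spacer (bp), with 0.5 to 2 kb peaks in dark blue, 2 to 4 kb peaks in light blue, transcripts as black lines and 5′ ends as ticks. A dark blue bar spans both ticks in 8 pairs and a light blue bar in 1.

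The spacers of 3 pairs are shown on the plus strand, from the base after the 5′ end of the H2B gene on the left to the base before that of the H2A gene on the right. Capitals mark CCAAT, the octamer and TATAAA on either strand. These are the pair with the longest peak, the pair spanned in both fractions, and the pair with the longest spacer among H2A and H2B pairs. The peaks over H2BC11 with H2AC11 were 952 bp (0.5 to 2 kb fraction) and 488 bp (2 to 4 kb fraction) long. The peak over H2BC12 with H2AC12 was 741 bp long in the 0.5 to 2 kb fraction, and no 2 to 4 kb peak touched it.

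H2BC8 and H2AC8, chr6:26216689-26216920: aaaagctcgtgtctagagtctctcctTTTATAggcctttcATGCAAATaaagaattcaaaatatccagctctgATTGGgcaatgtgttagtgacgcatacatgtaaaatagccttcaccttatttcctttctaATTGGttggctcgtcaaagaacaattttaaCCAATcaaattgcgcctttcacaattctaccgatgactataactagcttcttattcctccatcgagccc
H2BC11 and H2AC11, chr6:27132796-27133042: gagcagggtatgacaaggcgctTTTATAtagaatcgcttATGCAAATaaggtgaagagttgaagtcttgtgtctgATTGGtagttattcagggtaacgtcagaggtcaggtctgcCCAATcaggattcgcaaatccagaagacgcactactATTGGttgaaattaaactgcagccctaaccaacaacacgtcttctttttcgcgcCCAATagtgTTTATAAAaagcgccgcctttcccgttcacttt
H2BC12 and H2AC12, chr6:27146856-27147105: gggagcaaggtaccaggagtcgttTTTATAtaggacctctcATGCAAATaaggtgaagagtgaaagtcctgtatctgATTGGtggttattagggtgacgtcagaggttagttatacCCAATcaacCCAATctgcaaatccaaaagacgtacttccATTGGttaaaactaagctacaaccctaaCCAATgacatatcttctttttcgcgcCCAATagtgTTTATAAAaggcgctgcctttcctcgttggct

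Base composition around the starts was lower in GC than at most genes. Within 500 bp of the transcript start the histone genes had GC contents of 43.9 to 56.6%, with a median of 50%, against a median of 61.3% for other protein-coding genes. Their observed over expected CpG ratio was above 0.6 at each of the 55 genes, with a median of 0.847, against 66.2% of other genes. A G4 motif was found in this window in 4 of the 55 genes (7.27%) and in 60.8% of other genes. The same held for the peaks themselves: 3 of the 47 peaks of the 0.5 to 2 kb fraction held a G4 motif (6.38%), against 21.0% of all peaks of that list. Of the peaks within 1 kb of a transcript start, 3 of 43 did at histone genes (6.98%) and 59.2% at other genes. In the 2 to 4 kb fraction these were 2 of 26 (7.69%) and 62.4%. The peaks at histone starts were shorter, with medians of 494 against 843.5 bp (0.5 to 2 kb) and 302.5 against 1504 bp (2 to 4 kb). A longer peak has more room for a motif, and the shares were not matched for length.

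Because origins called by ini-seq 2 were frequent at GC-rich starts, the histone genes were set beside genes of like GC content, counting intervals within 1 kb of the transcript start. Between 45 and 50% GC, 4.73% of other genes had a 3-hour origin and 0 of 25 histone genes did. Between 50 and 55% the values were 15.1% and 1 of 24, and between 55 and 60% they were 47.1% and 0 of 4. Over the range of 45 to 55%, 385 of 3389 other genes (11.4%) and 1 of 49 histone genes (2.04%) had a 3-hour origin. The 0.5 to 2 kb peaks were at 18.3% of other genes and 21 of 25 histone genes (84.0%) between 45 and 50% GC, and at 34.5% and 21 of 24 (87.5%) between 50 and 55%. For the 2 to 4 kb peaks the values were 24.7% against 12 of 25 (48.0%) and 52.3% against 12 of 24 (50%).

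**Figure D5:**
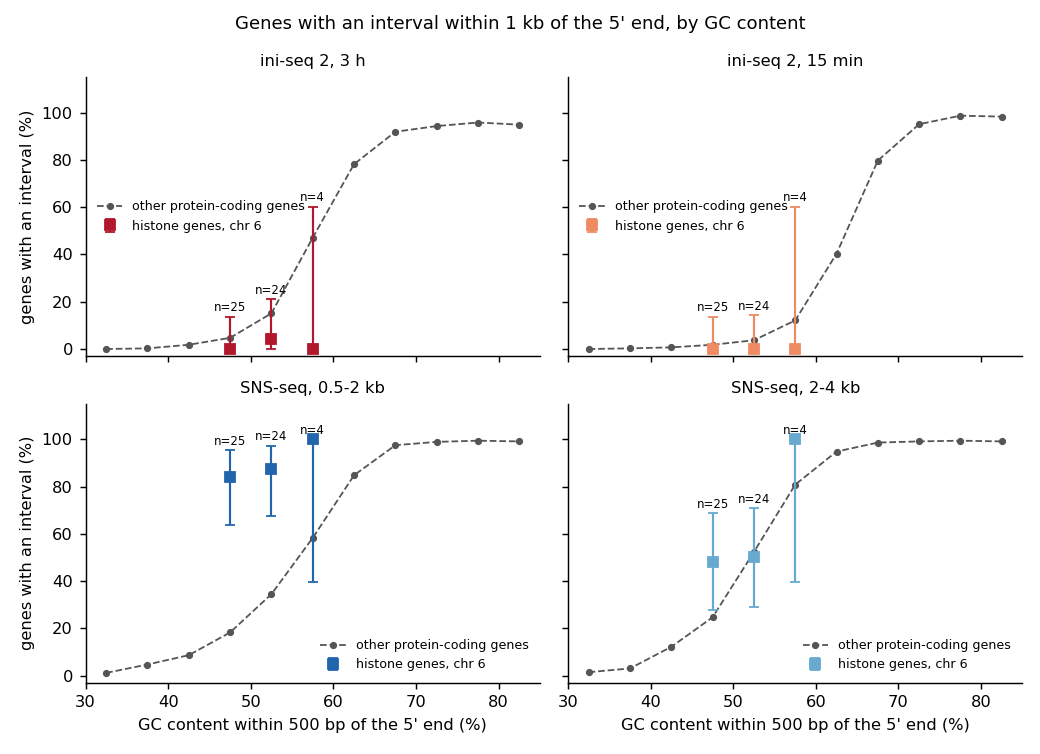
Share of genes (%) with an interval within 1 kb of the transcript start, by GC content within 500 bp of the start in steps of 5 points, for other protein-coding genes (grey) and the histone genes (coloured, with exact 95% intervals and the number of genes), leaving out the 2 histone genes between 40 and 45%. Between 45 and 55% GC the histone genes lie above the grey line for 0.5 to 2 kb peaks. For 3-hour origins their values are lower (0% against 4.73% and 4.17% against 15.1%), but their intervals include the grey values.

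The comparison shifted when CpG content was taken into account too. Among the 1180 other protein-coding genes with 45 to 55% GC and a CpG ratio above 0.6, 24.7% had a 3-hour origin, 6.19% a 15-minute origin, 46.1% a 0.5 to 2 kb peak and 59.2% a 2 to 4 kb peak. Of the 49 histone genes in this range, 1 had a 3-hour origin (2.04%), 0 a 15-minute origin, 42 a 0.5 to 2 kb peak (85.7%) and 24 a 2 to 4 kb peak (49.0%). By the same window, 24.8% of the 1062 other single-exon protein-coding genes had a 3-hour origin and 19.3% a 15-minute origin. A 0.5 to 2 kb peak was at 39.5% of them and a 2 to 4 kb peak at 46.0%.

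Histone genes of a type resemble each other, and reads that did not align to a single place were removed by the authors, so the share of 50-base words that occur once in hg38 was computed for each gene. In 32 of the 55 genes all words were unique, and in 44 more than 90% were. The share was under 50% in H2BC12, H2AC13, H2AC14, H4C11 and H4C12, with a lowest value of 7.40% in H4C12. Each of these 5 genes had a 0.5 to 2 kb peak, in part beside the gene: the peak covered 0% of H2AC14, 0% of H4C11, 3.64% of H2AC13, 13.2% of H4C12 and 14.5% of H2BC12. Without them, 2 of 50 genes had a 3-hour origin (4.00%), 43 a 0.5 to 2 kb peak (86.0%) and 27 a 2 to 4 kb peak (54.0%). Of the 32 genes with unique words throughout, 1 had a 3-hour origin, 26 a 0.5 to 2 kb peak and 15 a 2 to 4 kb peak.

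The remaining H2A and H2B genes are accounted for as follows. H2AC6, H2AC8, H2AC12 and H2AC17 had 66.3, 74.3, 91.7 and 57.7% of the transcript covered by 0.5 to 2 kb peaks, and H2AC11, H2AC7, H2AC1, H2AC15 and H2AC4 had 90.9, 60.2, 36.2, 26.0 and 7.78%. Among the H2B genes, coverage was highest in H2BC8 (83.0%), H2BC14 (72.0%) and H2BC10 (71.0%). It lay between 45.2 and 56.4% in H2BC7, H2BC11, H2BC4, H2BC9, H2BC15 and H2BC17, and was 37.0% in H2BC5, 20.4% in H2BC6 and 0% in H2BC1, whose peak was centred at -293 bp from its start. H2AC1 and H2BC1, which are transcribed in testis, lie apart from the other genes at the telomeric end and had 3 peaks of 205 to 249 bp.

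Histone genes that match the same symbol pattern outside chromosome 6 were 15 core histone genes on chromosomes 1, 12 and 21. Of these only H2AC25 and H2BC26, a pair on chromosome 1, had a 3-hour origin, with an efficiency of 0.8878, and none had a 15-minute origin. A 0.5 to 2 kb peak was present at 6 and a 2 to 4 kb peak at 7, but the share of unique words around the start had a median of 26.3% in these genes, against 98.6% in the chromosome 6 genes. The 13 replacement and variant histone genes differed in their counts, with a 3-hour origin at 11, a 15-minute origin at 8 and a high efficiency origin at 8. As shares these were 84.6, 61.5 and 61.5%, with exact Clopper-Pearson intervals of 54.6 to 98.1%, 31.6 to 86.1% and 31.6 to 86.1%. Each interval includes the share of all protein-coding genes (66.0, 46.5 and 38.0%). H3-3A and H3-3B, which both encode H3.3, had efficiencies of 0.9606 and 0.9207, and H2AZ1 and H2AZ2, which encode H2A.Z, had 0.859 and 0.9203. H2AX, which encodes the variant phosphorylated at DNA breaks and carries a replication-type stem-loop, had 0.9546. H3-5 and H2BK1 had no 3-hour origin. The median GC content at the start was 61.7% in the variant genes and 50% in the chromosome 6 genes.

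Of the 23 genes for histone gene expression, mRNA processing and histone deposition, 18 (78.3%) had a 3-hour origin and 15 (65.2%) a 15-minute origin. The exact Clopper-Pearson intervals, 56.3 to 92.5% and 42.7 to 83.6%, include the shares of all protein-coding genes, 66.0 and 46.5%. The genes with a 3-hour origin include SLBP (efficiency 0.931), LSM11, a component of the U7 snRNP that processes histone mRNA (0.9617), and CCNE1 for cyclin E1 (0.9751). They also include E2F1 (0.8819) and the chaperone genes NASP (0.9159), ASF1A (0.9302) and CHAF1B (0.9666). NPAT, the co-activator of the histone genes, had no origin at 3 hours or at 15 minutes, although it had a peak in both SNS-seq fractions. CASP8AP2 and COIL, whose products also reside in histone gene nuclear bodies or Cajal bodies, likewise had peaks of both fractions and no origin. CSTF2 had no interval in any list, and ERI1 had a 15-minute origin but none at 3 hours.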

How the data were processed

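The data were 4 deposited interval lists from EJ30 cells on hg38. For ini-seq 2 the authors aligned reads with Bowtie2, removed reads without a unique alignment and PCR duplicates, and joined windows enriched for HL over LL reads. At 3 hours the deposited value of an origin is a fraction, the efficiency HL/(HL + LL), between 0.800 and 1.00, although the heading of the list names a Z-score. At 15 minutes the deposited value is a standardised score (mean 0.00, SD 1.00 over the list). SNS-seq peaks were called by the authors with MACS2 over a genomic DNA control, and their lists hold positions alone. How many replicates were pooled is not given in the sources used here except at 3 hours.

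Intervals were intersected with GENCODE 44 genes and the hg38 sequence in Python 3.11.15 with pysam 0.24.0, numpy 2.4.6 and pandas 2.3.3. The build of the lists and the annotation is the same. Position along a gene was measured from the 5′ end of the Ensembl canonical transcript. Every histone gene was named at least once. Shares carry exact Clopper-Pearson intervals. The overlap, motif and unique-word searches were tested on simulated data. The histone genes, the other gene lists and the motifs were chosen with earlier results of these data known. The alternatives were other margins, a larger overlap, other gene models, other word lengths and other motif rules.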

Additional observations from a re-analysis of the deposited data

How the results depend on the processing

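The shares of the 55 histone genes with an interval were recomputed with the gene body alone, with 1 kb either side of the 5′ end alone, with 5 kb, with at least 100 bp of overlap, without the 5 genes under 50% unique words, and, as an alternative chosen after seeing the data, with canonical transcripts. The 3-hour share stayed between 1.82 and 4.00%, and the 15-minute and high efficiency shares were 0% throughout, the latter also with a limit of 0.9. The 0.5 to 2 kb share ran from 81.8 to 90.9%. The 2 to 4 kb share ran from 41.8% with the gene body alone to 72.7% within 5 kb (40 genes, against 85.5% of all protein-coding genes), the latter outside the interval of the main value. The comparison with all protein-coding genes also depends on the window. Within 1 kb of the 5′ end alone, 65.2% of all protein-coding genes and 87.3% of the histone genes had a 0.5 to 2 kb peak. For 2 to 4 kb peaks these shares were 73.6 and 50.9%, and for 3-hour origins 55.4 and 3.64%. The other values rest on 2 origins. Their median GC content was 60.5% over the whole origin and 64.8% in the central 300 bp. A G4 motif was found in 1 of the 2 with loops of up to 12 bases, and in 1 with 500 bp added on either side. No paired analysis was possible because each condition is 1 list. Since the lists hold no counts or peak heights, neither the depth behind an absent interval nor a stricter set of peaks could be examined, and an interval below a caller's limit cannot be told apart from none.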
